A study of Homo sapiens with 4 samples.

Results

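The transcripts of 6 regulators and markers of plasma cell differentiation, IRF4, PRDM1, XBP1, ELL2, SDC1 and TNFRSF17, were compared between control and GNA13-deficient lymphoma cells under Gα13 stimulation. The genes were chosen by symbol, as factors that drive the plasma cell state or proteins that mark it, and all 6 were found among the 25066 genes of the deposited table. NUDUL1, a human diffuse large B cell lymphoma line of the germinal center type, carried doxycycline-inducible Cas9 and the transduced thromboxane receptor Tbxa2r. Cells expressing a control sgRNA formed the control group and cells expressing a GNA13 sgRNA formed the GNA13-deficient group, with 2 libraries in each of them. Cells of both genotypes received 10 nM U46619, a stable mimic of thromboxane A2 that signals through Gα13, for 24 h, so that neither group held unstimulated cells. Each genotype rests on 1 sgRNA in a line grown from a single-cell Cas9 clone. The labels number the replicates of each genotype without saying how they were made. The p values therefore measure the spread between these libraries only.

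Plasma cells are the antibody-secreting end stage of the B cell lineage, and germinal center B cells reach it by exchanging one set of transcription factors for another. IRF4 acts in a dose-dependent manner and at high levels promotes PRDM1, whose protein Blimp-1 silences the B cell program, including PAX5 and CIITA. BCL6 in turn represses PRDM1 in germinal center B cells. XBP1 expands the secretory apparatus, ELL2 is an elongation factor that favors the secreted form of the immunoglobulin heavy chain, and SDC1 (CD138) and TNFRSF17 (BCMA, a receptor for APRIL and BAFF) are surface proteins of plasma cells.

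Sequence features of the XBP1 and PRDM1 loci are shown first, and 1 of them bears on how the XBP1 values can be read. XBP1 becomes an active factor when the endoplasmic reticulum sensor IRE1 removes a short stretch from its cytoplasmic mRNA. In GENCODE (GRCh37) this stretch is annotated as a gap of 26 bases in 1 transcript, at chr22:29192116-29192141 on the minus strand, and in the unprocessed transcript it lies within exon 4 of 5, starting at coding base 493 of 783. The annotated gap is given below in capitals with 24 bases on each side. Its first base and the base that follows it are both G. A stretch placed 1 base later would therefore leave the same joined sequence, and the edges shown are those of the annotation. Reads summed per gene count the processed and the unprocessed mRNA together, so the XBP1 values that follow do not separate the active form.
XBP1 mRNA around the stretch removed by IRE1: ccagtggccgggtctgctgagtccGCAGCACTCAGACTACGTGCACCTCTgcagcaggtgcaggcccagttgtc

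The 250 bases before the upstream start of XBP1 (RefSeq, GRCh38.p14, chr22:28800570-28800819, minus strand) hold 1 match to the endoplasmic reticulum stress element (CCAAT and CCACG, separated by 9 bases), the binding sequence of ATF6 and XBP1. The match, in capitals, begins 52 bases before the start, and 0.074% of 35116 promoter windows of that length hold one on either strand. The windows before the starts of PRDM1 (chr6:106086086-106086335 and chr6:106098691-106098940, plus strand) are shown because PRDM1 had the largest difference of the 6 genes. Both were searched, on both strands, for the IRF composite element (GGAA and GAAA, separated by 2 bases), the interferon response element (GAAA and GAAA, separated by 2 bases), a Blimp-1 core AGNGAAAG (these 3 share GAAA and can overlap), a BCL6 core TTCCTNGAA, an XBP1 core TGACGTGG, the stress element above and an NF-κB site GGGNNTTCC. The upstream window held 1 match, to the NF-κB letters, 109 bases before the start and in capitals, which 5.78% of all windows also hold. The downstream window held no match, as did the IRF4 window, which says only that these letters are not in them.
XBP1 promoter: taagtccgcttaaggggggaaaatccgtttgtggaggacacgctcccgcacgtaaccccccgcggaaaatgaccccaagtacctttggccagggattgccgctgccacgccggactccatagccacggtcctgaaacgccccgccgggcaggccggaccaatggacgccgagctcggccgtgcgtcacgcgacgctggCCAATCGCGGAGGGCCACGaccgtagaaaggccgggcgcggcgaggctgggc
PRDM1 promoter, upstream start: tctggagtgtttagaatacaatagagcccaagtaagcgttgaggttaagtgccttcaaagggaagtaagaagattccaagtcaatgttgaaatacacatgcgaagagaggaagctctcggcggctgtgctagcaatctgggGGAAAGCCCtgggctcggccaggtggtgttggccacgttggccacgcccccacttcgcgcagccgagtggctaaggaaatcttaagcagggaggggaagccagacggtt
PRDM1 promoter, downstream start: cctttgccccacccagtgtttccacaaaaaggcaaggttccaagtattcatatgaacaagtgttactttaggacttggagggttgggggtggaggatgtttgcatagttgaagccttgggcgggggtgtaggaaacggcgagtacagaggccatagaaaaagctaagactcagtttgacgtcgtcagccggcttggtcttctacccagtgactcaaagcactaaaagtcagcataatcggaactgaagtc

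Between 29209544 and 31537955 reads were mapped per library. GNA13 mRNA was higher, not lower, in the libraries labelled GNA13-deficient, with log2 normalized reads of 12.46 and 12.45 in control and 13.10 and 13.11 in GNA13-deficient cells (difference 0.65, SE 0.051, adjusted p = 0.00214 from limma). GNA13-deficient therefore stands below for the libraries labelled so, and every direction rests on those labels. Cas9 edits need not lower the level of the edited transcript, so this value does not decide whether the labels hold. Relative to the 8 B lineage markers, which summed to between 68295 and 78649 reads in every library, markers of other cell types were rare. The T cell markers CD3D, CD3E, CD2 and TRAT1 had 0 reads in every library, as had the myeloid markers FCGR3A and S100A8. The summed T cell reads were 125 to 184 in control, mostly CD4, and 5 to 15 in GNA13-deficient cells. The summed myeloid reads were 259 to 285 in control, mostly ITGAM and LYZ, and 54 to 70 in GNA13-deficient cells, where CD68, with 42 and 29 reads against 35 and 39, was the largest part. At the threshold given below, 16.6% of all genes tested fell and 13.1% rose. Of the markers tested, 2 of 3 for T cells and 2 of 5 for myeloid cells fell, as did 2 of the 8 B lineage markers, while 1 of those 8 rose and none of 3 for NK cells passed (11 to 35 summed reads). The part of these transcripts in the results below was not tested.

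PRDM1 fell in GNA13-deficient cells to 27.8% of its control level, TNFRSF17 to 66.2% and IRF4 to 79.9%, and no member rose. These 3 members passed an adjusted p threshold of 0.05 in limma, a linear model fitted to the log2 values of all 16945 genes that lay above 0 in at least 2 libraries. Of all genes tested 29.7% passed this threshold in either direction and 16.6% passed it as lower, so that with so few members the share called is a description of these genes. XBP1, SDC1 and ELL2 did not pass. With any 1 of the 4 libraries left out, which leaves 1 residual degree of freedom, 0 genes of the whole table passed in limma, although 5257 to 5600 had an unadjusted p under 0.05. For all 6 genes both GNA13-deficient libraries lay on one side of both control libraries, as they did for 65.3% of the genes tested.

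PRDM1 (Entrez 639; GRCh37 chr6:106441338-106557814, plus strand) encodes the repressor Blimp-1. Its log2 normalized reads were 8.02 and 8.12 in control and 6.15 and 6.30 in GNA13-deficient cells. The control libraries held 255 and 282 reads of it and the GNA13-deficient libraries 69 and 73, so the genotypes stood far apart and the replicates close together. The difference was -1.85 (SE 0.15, 95% interval -2.23 to -1.46, adjusted p = 0.00224 from limma), and 5.62% of the genes tested had a difference as low or lower. The nearest libraries of the genotypes were 1.72 apart, against 0.10 and 0.15 between replicates. ATG5 overlaps the PRDM1 locus on the opposite strand and the gene model ENSG00000269919 on the same strand, and it is not stated how overlapping reads were assigned or whether they were counted by strand.

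IRF4 (Entrez 3662; chr6:391739-411443, plus strand) was among the most abundant transcripts, with a mean higher than that of about 97.6% of the genes tested. Its log2 normalized reads were 13.71 and 13.61 in control and 13.40 and 13.28 in GNA13-deficient cells, with 13142 and 12708 reads against 10498 and 9221. The genotypes did not overlap, and the gap of 0.21 between their nearest libraries was wider than the 0.10 and 0.12 between replicates. The difference was -0.32 (SE 0.074, 95% interval -0.51 to -0.13, adjusted p = 0.0309 from limma).

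TNFRSF17 (Entrez 608; chr16:12059067-12061925, plus strand), the BCMA receptor, had log2 normalized reads of 9.71 and 9.89 in control and 9.11 and 9.31 in GNA13-deficient cells. Its read counts were 825 and 967 against 537 and 591, and replicate 2 was the higher library in both genotypes. The difference was -0.60 (SE 0.11, 95% interval -0.88 to -0.31, adjusted p = 0.017 from limma). NPIPB2 overlaps this locus on the opposite strand.

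XBP1 (Entrez 7494; chr22:29190543-29196585, minus strand) had log2 normalized reads of 12.55 and 12.67 in control and 12.28 and 12.42 in GNA13-deficient cells, from 5894 and 6628 reads against 4853 and 5105. Both GNA13-deficient libraries were lower, but the gap of 0.13 between the nearest libraries was of the size of the 0.12 and 0.14 between replicates. The difference was -0.26 (SE 0.077, 95% interval -0.46 to -0.06, adjusted p = 0.0646 from limma). The same difference had adjusted p = 0.0396 when limma's voom weights were used on the reads recovered from the values.

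ELL2 (Entrez 22936; chr5:95220802-95297555, minus strand) was the 1 member with a higher mean in GNA13-deficient cells, at 8.33 and 8.44 against 8.17 and 7.73 in control. The control libraries, with 283 and 215 reads, differed from each other by 0.45, more than the 0.16 that separated the genotypes' nearest libraries. The difference was 0.44 (SE 0.18, 95% interval -0.02 to 0.89, adjusted p = 0.13 from limma).

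SDC1 (Entrez 6382; chr2:20400558-20425194, minus strand), the gene for CD138, was the member with the fewest reads, 18 and 21 in control and 14 and 15 in GNA13-deficient cells. Its log2 normalized reads were 4.20 and 4.37 against 3.85 and 4.01. The difference was -0.35 (SE 0.33, 95% interval -1.20 to 0.49, adjusted p = 0.469 from limma). Counting error alone gives the ratio of the summed reads, 0.781, an exact binomial 95% interval of 0.466 to 1.30, so a change of this size was not detectable at this depth.

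**Figure D1:**
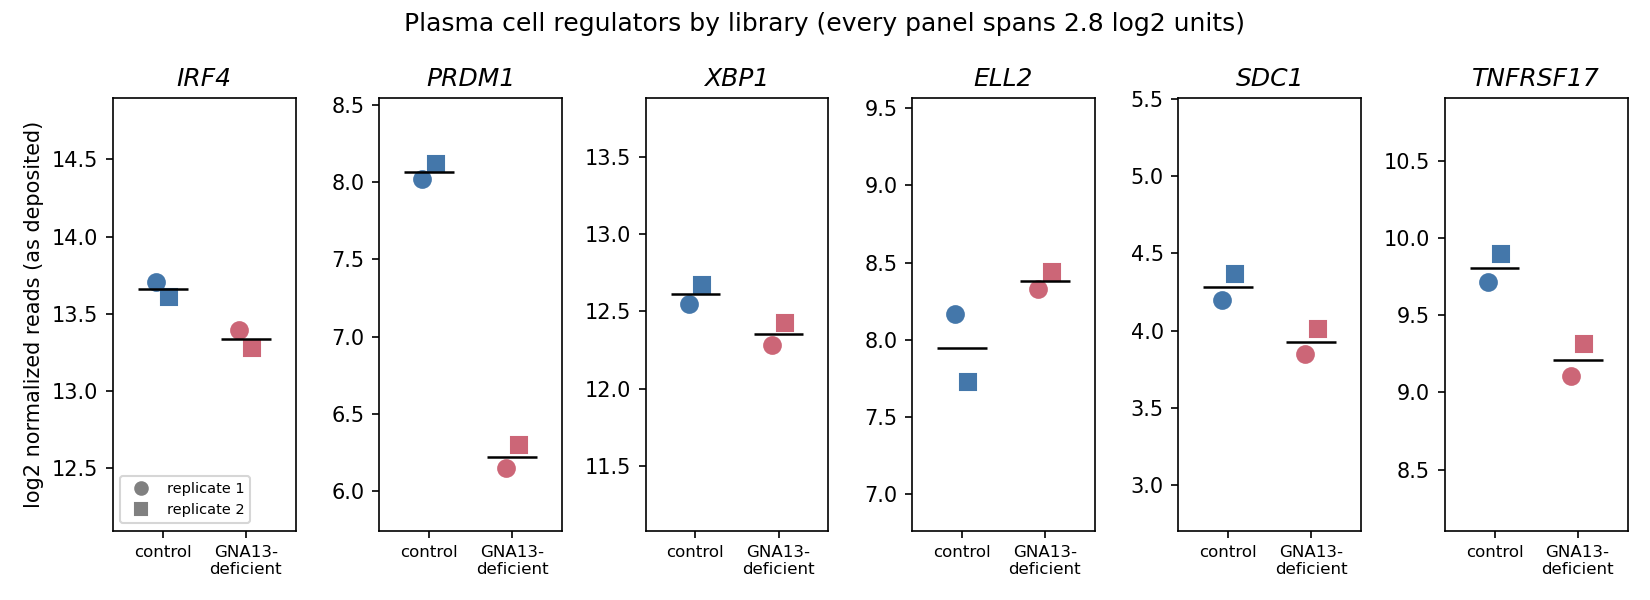
Log2 normalized reads of the 6 genes in each library, control in blue and GNA13-deficient in red, with circles for replicate 1, squares for replicate 2 and a line at each group mean; the vertical scale has the same span in every panel. PRDM1 shows the widest separation (means of 8.07 and 6.22), while ELL2 has the widest spread within a genotype.

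Per kilobase of the canonical transcript, on the log2 scale, XBP1 was the most abundant member in control cells (mean 11.77), followed by IRF4 (11.25), TNFRSF17 (9.97), PRDM1 (5.70), ELL2 (5.40) and SDC1 (2.62). Neighbors in this order were farther apart than their replicates, except PRDM1 and ELL2, whose nearest control libraries were at 5.65 and 5.63. In GNA13-deficient cells the same order held for XBP1 (11.51), IRF4 (10.93) and TNFRSF17 (9.38), but ELL2 (5.84) stood above PRDM1 (3.86), with ELL2 at 5.78 and 5.90 and PRDM1 at 3.78 and 3.93 in the libraries.

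How far these differences depend on scaling was examined with other normalizations of the whole table. Centring each library on its median moved the median of all genes from -0.02 to 0.18. It took the count of genes called from 5037 to 6235 of 16945, and the share of them that were higher from 44% to 69.1%. PRDM1 stood at -1.64 under this scaling (adjusted p = 0.00331 from limma). IRF4 was then at -0.11 (adjusted p = 0.263) and TNFRSF17 at -0.39 (adjusted p = 0.0705), so neither passed, XBP1 was at -0.05 (adjusted p = 0.715), and ELL2 was higher at 0.65 (adjusted p = 0.0409). Quantile normalization took IRF4 to -0.48 and XBP1 to -0.37, both past the threshold in limma (adjusted p = 0.00788 and 0.0117), and moved SDC1 to 0.05 with the opposite sign. Without the filter on low values, or without a variance trend, PRDM1 was the only member called.

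**Figure D2:**
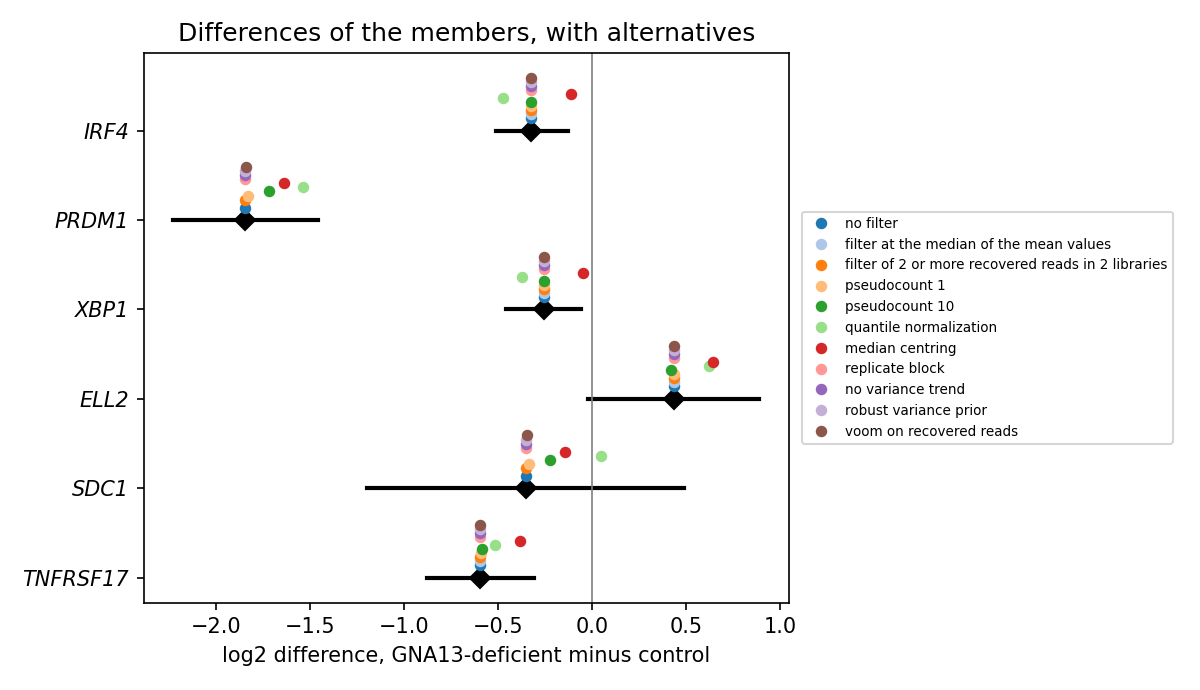
Log2 difference of each gene, GNA13-deficient minus control, with the 95% interval from limma as a black bar and the estimates under 11 alternative settings as colored points above it. PRDM1 stays between -1.85 and -1.54 under every setting shown, and SDC1 crosses 0 under quantile normalization.

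Relatives of the members were examined to see whether each difference was shared by its family. Of the interferon regulatory factors 8 were tested, IRF4 included, and the share called was 62.5% against 29.7% of all genes. IRF4, IRF5, IRF7 and IRF8 fell and IRF3, an activator of type I interferon genes, rose by 0.34. IRF8, the partner of PU.1 in germinal center B cells, fell by 0.58 (8.81 and 8.92 against 8.21 and 8.36; adjusted p = 0.0153 from limma), and IRF7 by 0.65. IRF5 was lower by 0.50 (adjusted p = 0.0329). With median centring, under which 69.1% of all genes called were higher, 2 of the 8 rose and 1 fell. The differences of IRF4, IRF5 and IRF8 then kept their sign and did not pass (adjusted p = 0.263, 0.0961 and 0.0598 from limma). IRF5 did not pass with quantile normalization either (adjusted p = 0.0829 from limma).

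Of 14 PRDM genes and corepressors known to act with Blimp-1, PRDM1 included, 4 fell, none rose and 10 did not pass. The share called was 28.6% against 29.7% of all genes. With median centring, under which 69.1% of all genes called were higher, 4 fell and 1 rose. PRDM1, PRDM15 (-0.90) and PRDM2 (-0.47) fell, and PRDM4, PRDM10 and PRDM11, named after their values were seen, had differences from -0.36 to -0.25 that did not pass. The corepressor that fell was TLE1, of the Groucho family, which had 111 and 178 reads in control and 17 and 12 in GNA13-deficient cells and fell by 3.23 on the log2 scale (SE 0.34, adjusted p = 0.004 from limma). Of the ELL genes, ELL3, a paralog of ELL2, fell by 1.05 (9.44 and 9.34 against 8.27 and 8.42; adjusted p = 0.00292 from limma), while ELL had a difference of 0.03. ELL2 and ELL3 thus had differences of opposite sign in these libraries, of which only that of ELL3 passed.

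The receptors for BAFF and APRIL had differences of both signs. TNFRSF13C, the BAFF receptor, fell by 1.12 (8.54 and 8.44 against 7.60 and 7.15; adjusted p = 0.0121 from limma) and TNFRSF17 fell as given above, whereas TNFRSF13B, which encodes TACI, rose by 0.38 (10.76 and 10.87 against 11.20 and 11.20; adjusted p = 0.012). TNFSF13, the gene for APRIL, had a difference of -0.41 (adjusted p = 0.204), and TNFSF13B, the gene for BAFF, had 3 to 5 reads per library. The syndecans were scarce. SDC2 had 0 reads in every library, and SDC3 had 9 reads in each control library against 2 and 0 in GNA13-deficient cells. The ratio of the summed SDC3 reads was 0.117 (exact binomial 95% interval 0.0131 to 0.487, for counting error only), and that of SDC4, with 2 and 2 against 7 and 9 reads, was 4.20 (1.35 to 17.3).

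**Figure D3:**
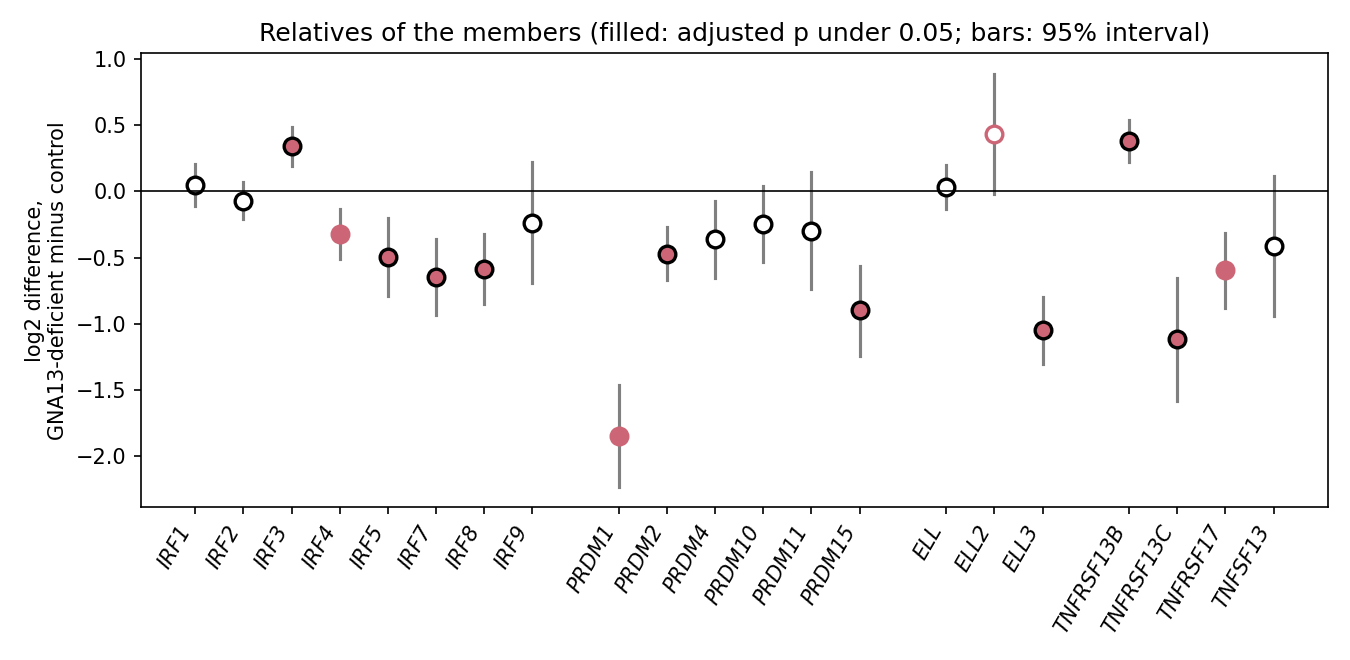
Log2 difference, GNA13-deficient minus control, for tested IRF, PRDM, ELL and BAFF/APRIL genes, with 95% intervals from limma; filled circles have an adjusted p under 0.05 and red outlines mark the members. PRDM1 lies lowest of the genes shown, and TNFRSF13B lies above 0 while TNFRSF13C and TNFRSF17 lie below it.

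Other genes that mark or serve plasma cells were divided. Of 28 such genes tested, 5 rose, 6 fell and 17 did not pass, a share called of 39.3% against 29.7% of all genes, and their median difference was 0.01 against -0.02. CD27, a receptor of memory B cells and plasma cells, fell by 2.57 (9.16 and 9.34 against 6.58 and 6.78; adjusted p = 0.00114 from limma). BHLHA15 (MIST1), a secretory cell factor, had 16 and 21 reads in control and 3 in each GNA13-deficient library, a ratio of 0.17 (exact binomial 95% interval 0.0587 to 0.407, for counting error only). CREB3L2, a factor of the secretory pathway, fell by 0.74. FCRL5, EAF2, a partner of the ELL proteins, and the integrin ITGA4 rose by 0.59, 0.52 and 0.40.

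Values of 3 further genes of antibody-secreting cells fixed by name, none past the threshold, and of IGLL1 follow. JCHAIN, the joining chain of polymeric antibodies, was at 16.06 and 16.27 in control and 16.25 and 16.51 in GNA13-deficient cells, with overlapping genotypes (difference 0.22, adjusted p = 0.336 from limma). MZB1, a chaperone of immunoglobulin assembly, had a difference of -0.04 (adjusted p = 0.75), and CD38 one of 0.24 (adjusted p = 0.0521). Of 15 immunoglobulin genes listed, only IGLL1 was matched; it rose by 1.90 (adjusted p = 0.00125), and reads of near-identical lambda light chain genes could be counted with it. With median centring CD38 passed as well (0.45, adjusted p = 0.0073).

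The B cell program, part of which Blimp-1 is known to silence, was examined for the opposite movement. Of its 21 genes 2 rose, 8 fell and 11 did not pass (47.6% called against 29.7% of all genes), with a median difference of -0.18 that became 0.03 after median centring. BCL6, the repressor of PRDM1, also fell, with a difference of -2.49 (10.75 and 10.90 against 8.23 and 8.44; adjusted p = 0.00085 from limma). BACH2, another repressor of PRDM1, fell by 0.58 (adjusted p = 0.0109), from 18053 and 20530 reads to 13297 and 11321. The chemokine receptor gene CXCR5 had a difference of -2.71 and the complement receptor gene CR2 one of -1.75, the latter from 34 and 36 reads to 7 and 14. As targets of Blimp-1 only PAX5, CIITA and SPIB are given here. The other genes of the list, BCL6 among them, were not sorted by this trait. PAX5 had a difference of 0.08 (adjusted p = 0.503 from limma), or -0.04 with quantile normalization. CIITA had one of -0.15 (adjusted p = 0.159 from limma) and SPIB one of 0.13 (adjusted p = 0.135 from limma). MITF, which is in the B cell list and not counted here as a target of Blimp-1, rose by 1.13. PAX5 and SPIB passed as higher with median centring (0.28 and 0.33; adjusted p = 0.0394 and 0.0148).

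Inputs and DNA-binding partners of IRF4 were tested as a list of 15 genes, with a median difference of 0.02. Of these 4 rose, 3 fell and 8 did not pass (46.7% called, against 29.7% of all genes). The NF-κB subunits moved both ways, with REL, an inducer of IRF4 in B cells, lower by 0.61 (adjusted p = 0.0185 from limma) and NFKB2 higher by 0.33. SPI1, which encodes the partner PU.1, fell by 0.57 and STAT3 by 0.42. BATF3, an AP-1 partner of IRF4, rose by 2.21, from 10 and 20 reads to 67 and 58 (adjusted p = 0.0179), and CD40 rose by 0.47. The 16 interferon-stimulated genes, targets of the wider IRF family, had 3 that rose and 8 that fell (68.8% called, against 29.7% of all genes). OAS3 was at -3.90 and IFI44L at 1.66. With quantile normalization, and likewise with median centring, 3 of the 16 rose and 6 fell.

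The secretory genes driven by XBP1 showed no common direction. Of 33 tested, 4 rose, 4 fell and 25 did not pass, a share of 24.2% against 29.7% of all genes, and the median difference was 0.01. The signal recognition particle receptor gene SRPR fell by 0.67 (adjusted p = 0.00205 from limma), the chaperone gene HYOU1 by 0.56 and the cochaperone gene DNAJB9 by 0.34. WFS1, DERL2 and PDIA6, which act in folding and disposal of secretory proteins, rose by 0.44, 0.35 and 0.31. DNAJB9 did not pass under quantile normalization or median centring (adjusted p = 0.118 and 0.347). With median centring, under which 69.1% of all genes called were higher, 12 rose and 2 fell.

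Around XBP1 itself, ERN1, the gene for IRE1, had 164 and 142 reads in control and 123 and 102 in GNA13-deficient cells (difference -0.38, adjusted p = 0.182 from limma). The chaperone gene HSPA5 was at 14.37 and 14.49 against 14.43 and 14.48, with a 95% interval of the difference from -0.17 to 0.22. Of 11 sensors and factors of the unfolded protein response, 3 fell, ATF6B by 0.62, MBTPS1 by 0.45 and EIF2AK3 by 0.28, and none rose, a share called of 27.3% against 29.7% of all genes. With median centring MBTPS1 and EIF2AK3 did not pass (adjusted p = 0.0568 and 0.328 from limma). Under that scaling 4 of the 11 were called higher, as were 69.1% of the genes called in the whole table.

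The elongation list held 16 genes, ELL2 included, of which 4 rose and 2 fell (37.5% called, against 29.7% of all genes). The super elongation complex gene MLLT1 rose by 0.46 and its paralog MLLT3 fell by 1.02, and HEXIM1, an inhibitor of P-TEFb, rose by 0.26. CSTF2, whose cleavage factor acts on heavy chain messages, rose by 0.22 (adjusted p = 0.0368 from limma; named after its values were seen). Of 17 genes for syndecans and their heparan sulfate, SDC1 included, 3 rose and 5 fell (47.1% called, against 29.7% of all genes). Among them were the chain initiator XYLT1 at 0.54, HS2ST1 at 0.28, NDST2 at -0.57 and the chain polymerase EXT2 at -0.45. In the BAFF and APRIL system 4 of 15 rose and 4 fell, TNFRSF17 among the latter (53.3% called, against 29.7% of all genes). TRAF2 rose by 0.51 and MCL1, a survival gene downstream of BCMA, by 0.26, while TRAF1 fell by 1.18. MCL1 did not pass with quantile normalization (0.09, adjusted p = 0.278). Among other genes named above, ITGA4, PDIA6 and TRAF1 also did not pass with quantile normalization, SPI1, NDST2 and EXT2 did not pass with median centring, and CR2 passed with neither. Of the 82 genes called among the 205 tested genes of all lists, 30 passed without the filter on low values, among them PRDM1, BCL6, CD27, ELL3, SRPR and ATF6B, and 39 without a variance trend. TLE1 (adjusted p = 0.057 from limma), CXCR5 (0.057), TNFRSF13B (0.0675), IRF8 (0.0748), BACH2 (0.0956), TNFRSF13C (0.104), REL (0.113) and BATF3 (0.131) were among those that did not pass without the filter. With median centring the counts that rose and fell became 10 and 6 of the other plasma cell genes, 4 and 5 of the B cell program, 6 and 2 of the IRF4 inputs, 8 and 2 of the elongation list, 6 and 1 of the syndecan list and 5 and 3 of the BAFF and APRIL system. That scaling called 6235 of all 16945 genes tested, 69.1% of them higher. The list counts are to be read beside that shift of the whole table.

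**Figure D4:**
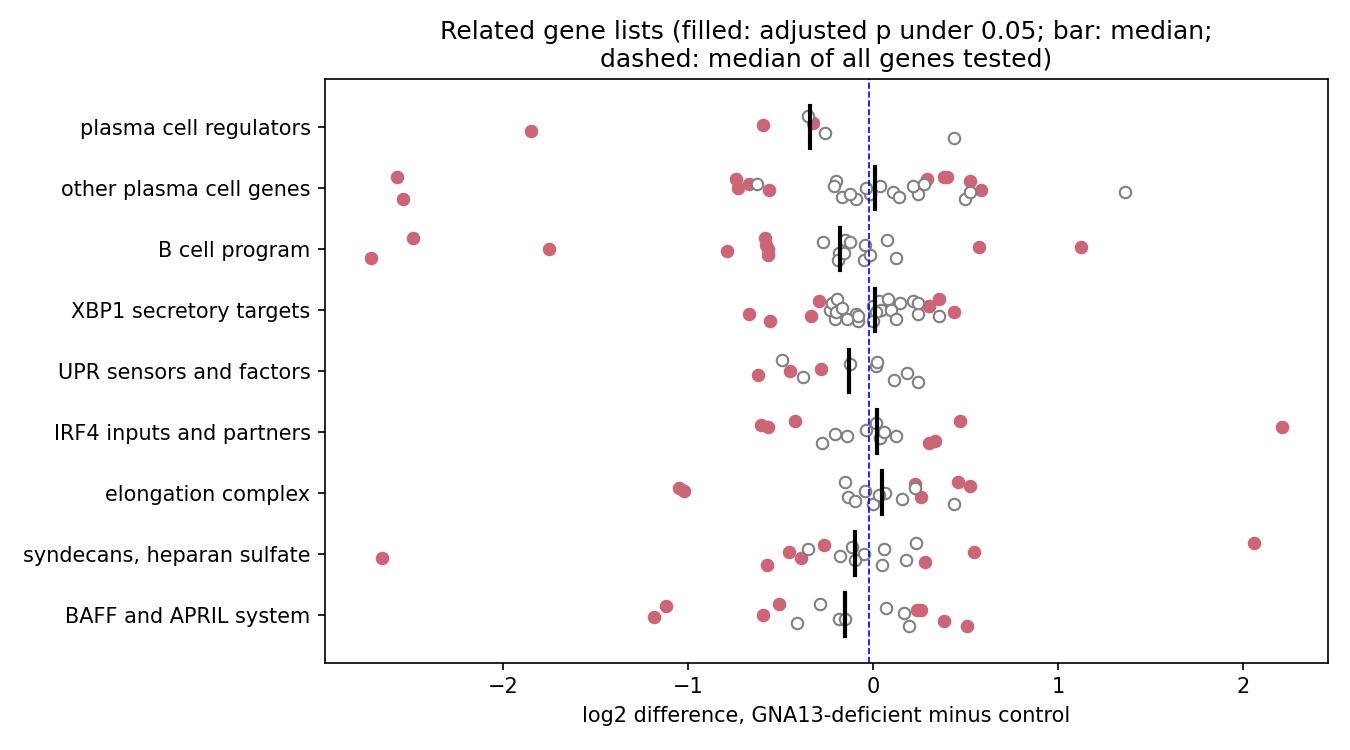
Log2 difference, GNA13-deficient minus control, for each tested gene of the member list and 8 related lists; filled points have an adjusted p under 0.05 by limma, black bars are list medians and the dashed line is the median of all genes tested, -0.02. Of the 8 related lists shown, 7 hold genes called in both directions. In the list of unfolded protein response sensors and factors 3 fell and none rose. PRDM1 is shown as a member, and the other PRDM genes are not shown here.

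The genes whose 4 values, each centred on its control mean, lay closest to a called member were sought among 8473 genes with at least the median mean level. For PRDM1 these were COCH, BMF and TRIP6, with root mean square distances of 0.039, 0.042 and 0.053 log2 units over the 4 libraries and differences of -1.84, -1.82 and -1.80. For IRF4 they were ZNF146, IFNAR1 and ZNF253, at distances of 0.010 to 0.011, and for TNFRSF17 SNX3, SERPINB1 and COPS6, at 0.008 to 0.022.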

How the data were processed

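RNA from NUDUL1 cells was sequenced by the authors from TruSeq stranded mRNA libraries and aligned to hg19 with STAR; the labels also name HTSeq. The authors deposited log2 values of normalized reads per gene for 4 libraries, with a row of total mapped reads on a linear scale (the unit is therefore recorded as other). The scaling, the annotation and the strand setting are not given in the sources used here. Values were used as deposited. On the linear scale, values of up to 100 reads were whole multiples of a constant per library in 100% of cases, within 1.5 times the rounding of the deposited decimals and at least 0.002 reads; reads recovered this way gave read counts, voom weights and exact binomial intervals, which cover counting error only. On the log2 scale, 3 reads stood at 1.56 to 1.69, the lower limit for detection.

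Genes above 0 in at least 2 libraries were compared with limma 3.58.1 in R 4.3.3 (mean-variance trend, genotype as the only term, 2 residual degrees of freedom, two-sided), with Benjamini-Hochberg adjustment over 16945 genes and a threshold of 0.05. An exact permutation test of 2 against 2 libraries cannot give a p below 0.333 and was not used. The members and the related lists were chosen with earlier results of these data known, and lists are described by counts and medians without a set test. Genes named beyond the members, their families, GNA13 and the other repressors, targets and markers fixed by name were the 3 largest rises and falls of each list with an adjusted p under 0.05, and any other is marked. Of 15 alternative settings, 11 kept all libraries and 4 left out a library. In simulated libraries with a dispersion of 0.00204 estimated from the replicates, 94.0% of genes changed by 1 log2 unit and 43.9% of those changed by 0.5 were called among 16907 genes, and 1 unchanged gene was. Only 66 genes were changed by 0.5, 67 by 1 and 67 by 2 log2 units. In the data 29.7% of the genes tested were called, so these detection shares need not hold there. Coordinates and transcript lengths are from GENCODE v44 lifted to GRCh37, and promoter windows from RefSeq on GRCh38.p14; these held IRF4, PRDM1, XBP1 and SDC1 but not ELL2 or TNFRSF17.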

Additional observations from a re-analysis of the deposited data

How the results depend on the processing

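PRDM1 kept its direction under the 14 alternatives that tested it and passed the threshold under all 10 that kept 4 libraries; keeping only genes at or above the median level removed PRDM1 and SDC1. No filter lowered the count of genes called to 1999 and no variance trend to 2718, and in both 1 member was called lower, IRF4 (-0.32) and TNFRSF17 (-0.60) no longer passing. Median centring left 1 member lower, with IRF4 at -0.11 and TNFRSF17 at -0.39 no longer passing, and 1 higher, ELL2 at 0.65. Quantile normalization also called 1 higher, ELL2 at 0.62, took XBP1 past the threshold at -0.37 and reversed SDC1 to 0.048. XBP1, at -0.26, also passed with the median-level filter, the filter of 2 or more reads, voom and the replicate block, and ELL2, at 0.44, with the median-level filter, which called 1 higher. The cause was not tested, except that fewer genes were tested under the stricter filters. Replicate numbers are shared by the genotypes, no source pairs the libraries, and deviations from the group means correlated within a number (0.453 over 8473 genes); with the replicate block 6616 genes were called and XBP1 passed (adjusted p = 0.00617), with no other change of a member's call; among the 205 listed genes tested, 82 of 82 calls were kept and 29 gained, JCHAIN (0.22, adjusted p = 0.0189), CD38 (0.24, 0.00876), CIITA (-0.15, 0.0378) and PRDM4 (-0.36, 0.00886) among them. With 1 library left out the lone library was assumed to vary like the pair and 1 residual degree of freedom remained: 0 genes and 0 members were called by limma in each of the 4 fits, with 5257 to 5600 genes at an unadjusted p under 0.05. Across these fits the differences ranged from -0.38 to -0.26 for IRF4, -1.92 to -1.77 for PRDM1, -0.33 to -0.19 for XBP1, 0.21 to 0.66 for ELL2, -0.44 to -0.27 for SDC1 and -0.70 to -0.49 for TNFRSF17 (ELL2 was lowest without control replicate 2 and highest without control replicate 1). Depth limits SDC1, SDC3, SDC4 and BHLHA15, where few reads carry the values.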
